A study of Homo sapiens with 13 samples.

Results

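The total RNA of MDA-MB-231 cells, a human ductal breast carcinoma line, was compared after 2 h with 200 nM INK128 and after 2 h with its vehicle, DMSO. INK128 is an inhibitor of the kinase mTOR that acts at its ATP site. Both cultures were at passage 3, and each treatment was sequenced as 1 total RNA library, so no test was possible and every difference here is between 2 libraries. Ribosome footprints (RFs, the mRNA fragments that ribosomes protect from nuclease) were sequenced for the same treatments and passage, again as 1 library each. The other libraries of the series are 7 RF libraries and 2 mRNA libraries of the Silvestrol experiment. The genes described are those with a mean of at least 0.3 FPKM (sequenced fragments scaled to the length of the gene and the size of the library) over both total RNA libraries, with 1 entry per symbol. They number 7207 of 13121 symbols in the table, of which 6634 are protein coding, 560 are noncoding and 13 have no class. The change of a gene is log2(INK128/DMSO) of its FPKM minus the median of the coding genes, and a gene is called higher or lower when it lies at least 1.5-fold from that median.

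mTOR joins nutrient and growth factor signals to protein synthesis. As the kinase of mTORC1 it phosphorylates the 4E-BPs and the S6 kinases and so promotes translation, above all of mRNAs that begin with a 5′ terminal oligopyrimidine (TOP) tract, which encode ribosomal proteins and elongation factors. As the kinase of mTORC2 it phosphorylates AKT, which keeps the FOXO transcription factors out of the nucleus. Total RNA holds mRNAs with a poly(A) tail together with RNAs that have none: the mRNAs of replication-dependent histones, which end in a conserved stem-loop, and small RNAs such as the snoRNAs that guide the modification of rRNA and the snRNAs of the spliceosome.

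The ends of 4 histone mRNAs show the element that sets this family apart from other mRNAs. The capitals mark the 16 bases of the stem-loop, and the sequences are the DNA strand of the mRNA, taken from the hg19 (GRCh37) genome at GENCODE transcript ends. They lie at chr6:27792232-27792257 (+), chr6:26046072-26046097 (+), chr6:27100095-27100120 (−) and chr6:26157318-26157343 (+), each in the 3′ UTR, 5 or 6 bases from the end of the annotated transcript.
HIST1H4J: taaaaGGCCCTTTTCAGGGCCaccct
HIST1H3C: gaaaaGGCTCTTTTCAGAGCCactca
HIST1H2BJ: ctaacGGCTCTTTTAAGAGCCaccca
HIST1H1E: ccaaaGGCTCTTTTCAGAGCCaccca
The letters CTTTTNAG, read on the mRNA strand only, stood in the last 100 bases of the annotated transcript of 44 of 46 histone genes with a transcript model (95.7%). They stood there in 80 of 6567 other coding genes (1.22%). Stem-loops were extracted for 40 histone genes, among them genes under the minimum of 0.3 FPKM such as HIST1H1B and HIST3H3. The form of HIST1H3C and HIST1H1E was found in 26, that of HIST1H2BJ in 5 and that of HIST1H4J in 4.

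The FPKM of nearly all coding genes was lower in the INK128 library. Their median ratio was 0.441 (log2 −1.18), and only 28 of 6634 had more FPKM with INK128 than with DMSO (0.422%). In the RF libraries of the same treatments the median log2 ratio of coding genes was 0.01. The short noncoding RNAs stood apart: 253 of 345 had more FPKM with INK128, with an uncentred median of 0.14. Their centred median in the RF libraries was 0.55. FPKM are relative to all the fragments of a library, so less mRNA per cell and more short RNA per cell cannot be told apart, and neither can an effect of the drug and of the preparation of 1 library. Among coding genes below the minimum, ratios recurred at whole-number steps of 1.05. Of 5100 such genes, 36 had this ratio itself, 58 had 0.527 (1 read against 2) and 36 had 0.352 (1 against 3), each within 0.001%. The step of 1.05 was sought only among ratios just above 1, so reading it as 1 read against 1 is an assumption. On that reading a single read was worth nearly the same FPKM in both libraries. Their absolute depth is unknown.

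**Figure D1:**
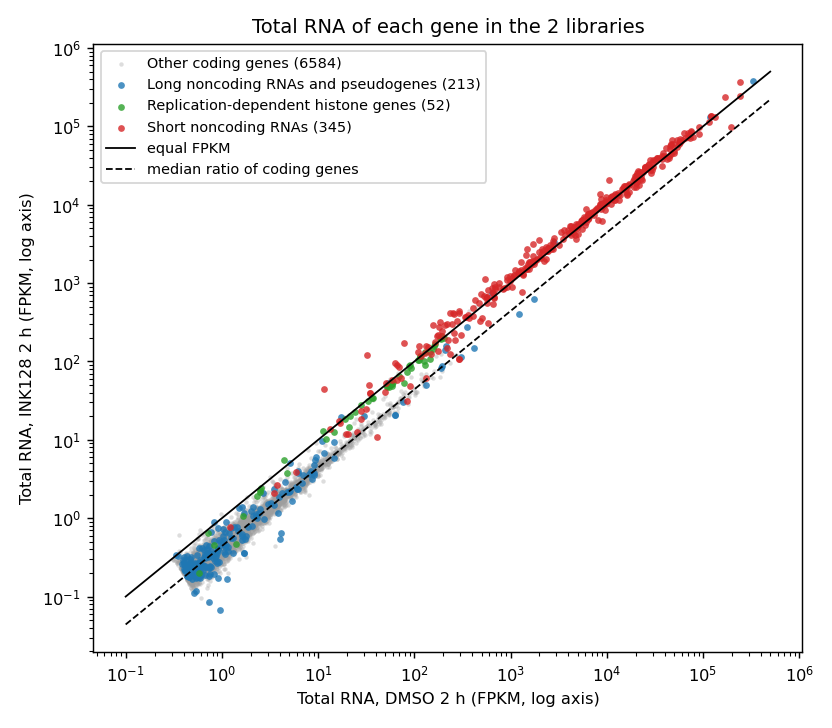
Total RNA of each gene with DMSO (x axis) and with INK128 (y axis), in FPKM on log axes, 1 point per gene and 1 library per axis. Short noncoding RNAs (red) and histone genes (green) lie near the line of equal FPKM, while other coding genes (grey) and long noncoding RNAs (blue) lie near the dashed line, the coding median ratio of 0.441.

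After centring, the quartiles of the coding genes were −0.16 and 0.16, and the 5th and 95th percentiles −0.45 and 0.51. Called higher were 250 (3.77%) and lower 142 (2.14%). All directions given here are relative to the coding median: without centring 1 coding gene would be called higher and 6395 lower, and genes with a centred rise under 1.18 have less FPKM with INK128. Of the higher genes, 46 were replication-dependent histones (18.4%, against 0.754% of all coding genes). A further 12 carried an annotated short RNA gene of the same strand within an exon (4.8%, against 2.98%), and 192 had neither feature. Histones aside, the range from the 5th to the 95th percentile was −0.53 to 0.53 at 0.3 to 0.5 FPKM and −0.28 to 0.35 at 5 to 10 FPKM. Above that the lower end stayed alike but the upper end rose, with −0.26 to 0.63 at 10 to 50 FPKM and −0.25 to 1.27 over the 50 genes at 50 FPKM or more. Most called genes were at low levels: 125 of the 192 higher genes with neither feature and 122 of the 142 lower genes had a mean under 1 FPKM. Of the lower genes, only ID1 and ID3 reached 5. The minimum fell between COMMD2, at a mean of 0.30003 FPKM, and DHX29, at 0.2999.

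The replication-dependent histone mRNAs stood apart from the other coding genes. These encode the core and linker histones that are made during DNA replication. Of 50 coding members, 46 were higher (background 3.77%) and none was lower, and their centred median was 1.07. Their uncentred median was −0.11, close to equal FPKM. All 7 H3 genes and all 9 H4 genes were higher, with medians of 1.14 and 1.14, as were 13 of 14 H2A genes (median 1.03) and 15 of 18 H2B genes (1.04).

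HIST1H4K, which encodes histone H4 (chr6:27798952-27799305), had 191 FPKM with DMSO and 209.7 with INK128, a centred change of 1.31. HIST1H3C had 188 and 191 FPKM (1.21), and HIST1H2BJ 128 and 130.4 (1.21). The levels of these core histone mRNAs were thus almost equal between the libraries. Both linker histone genes changed less. HIST1H1E had 129.8 and 90.7 FPKM (0.66), and HIST1H1C 146 and 107 (0.73). HIST1H4J (1.29), HIST1H4C (1.23), HIST1H2AG (1.22), HIST1H3H (1.20) and HIST1H2BM (1.38) were also among the 15 largest rises at 5 FPKM or more. The smallest change past the limit was that of HIST1H2AM (0.64), and the largest that of HIST1H4I (1.51), whose level was low at 4.39 and 5.53 FPKM. The 4 genes short of the limit were HIST1H2BH (−0.40), HIST1H2BG (−0.35), HIST1H2AA (0.30) and HIST1H2BF (0.55), all under 2 FPKM with DMSO. Histone genes are near-identical copies, so reads may have been shared or lost among them and single members are uncertain.

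Histone variant genes outside the replication-dependent set were looked at after the values above were known. Their mRNAs carry poly(A) tails, except that H2AFX also makes an mRNA that ends in the stem-loop. H3F3B, which encodes histone H3.3, had 4.35 FPKM with DMSO and 1.801 with INK128 (−0.09). H2AFZ had 14.7 and 6.79 (0.06), H2AFV 6.49 and 2.62 (−0.13), and H2AFY 5.44 and 2.19 (−0.13). H3F3A (0.25), H1F0 (0.16), H2AFX (0.38) and H1FX (0.51) lay higher, but none of the 8 passed 1.5-fold.

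Of 560 noncoding genes, 365 were higher (65.2%) and 17 lower (3.04%). Nearly all of the higher genes were short RNAs. The short class held 345 genes, of which 329 were higher (95.4%) and 1 was lower. The 215 long noncoding RNAs and pseudogenes had a median of 0.04, with 36 higher and 16 lower. How the FPKM of RNAs shorter than the usual fragment were scaled is not given in the sources used here, so levels are not compared between short RNAs and mRNAs.

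**Figure D2:**
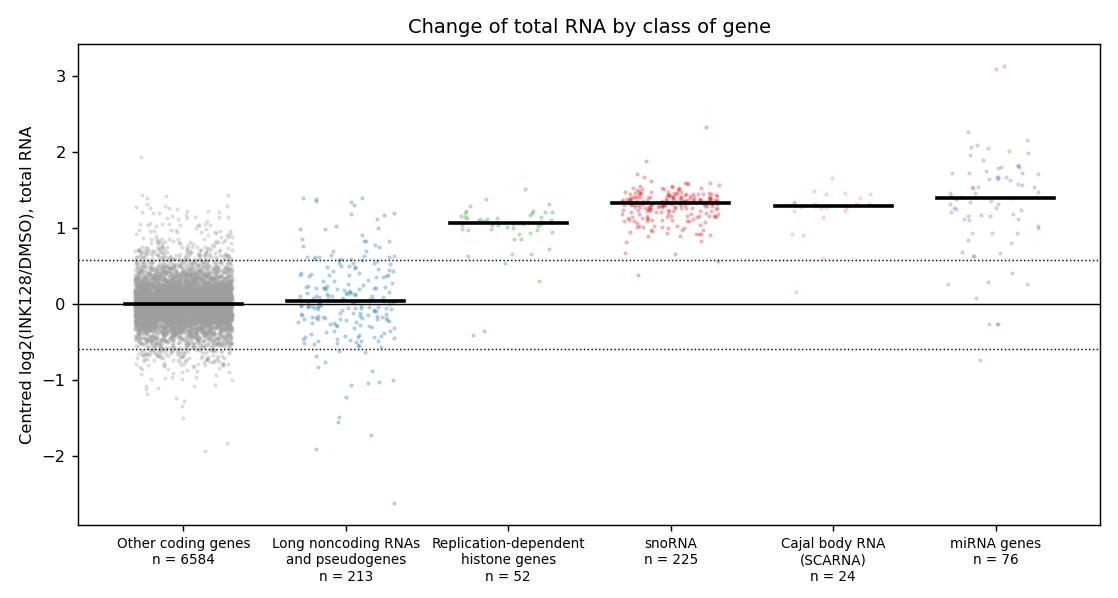
Centred log2(INK128/DMSO) of total RNA (y axis) by class of gene (x axis), 1 point per gene, with the median as a bar and 1.5-fold limits dotted. Histone genes sit near 1.06, snoRNAs near 1.33 and miRNA genes near 1.40, while other coding genes and long noncoding RNAs centre on 0.

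The snoRNAs lay with the short noncoding RNAs as a whole, of which 95.4% were higher, with a median of 1.32. Of 134 C/D box genes, whose products guide ribose methylation of rRNA, 133 were higher, with a median of 1.32. Of 91 H/ACA genes, which guide pseudouridylation, 90 were higher, with a median of 1.33. Of 24 scaRNA genes, which guide the modification of snRNAs in Cajal bodies, 23 were higher (1.29). SNORD88B had the largest change among them, from 77.6 to 172 FPKM (2.33), followed among C/D genes by SNORD47, with 8431 and 13666 FPKM (1.88). The smallest called changes were those of SNORD50A (0.66) and SNORD81 (0.67), and SNORD89 was short of the limit (0.38). SNORD88B lies at chr19:51302286-51302382 (−) and SNORD89 at chr2:101889398-101889511 (−) of hg19. Both sequences are given as the extremes of the class, with the box C letters TGATGA, where present near the start, and the box D letters CTGA near the end in capitals.
SNORD88B: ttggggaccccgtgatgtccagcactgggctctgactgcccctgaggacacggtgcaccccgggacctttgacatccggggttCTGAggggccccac
SNORD89: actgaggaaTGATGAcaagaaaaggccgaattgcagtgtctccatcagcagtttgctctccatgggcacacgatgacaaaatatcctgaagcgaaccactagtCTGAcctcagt

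Among H/ACA genes the called changes ran from 0.93 for SNORA39 and 0.98 for SNORA80 to 1.53 for SNORA56 and 1.59 for SNORA30. Among scaRNA genes they ran from 0.60 for SCARNA17 and 0.91 for SCARNA15 to 1.49 for SCARNA6 and 1.65 for SCARNA20. No scaRNA or snoRNA was lower, against 1 of all 345 short noncoding RNAs (0.290%).

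Several other structural RNAs lay at a similar height. RMRP, the RNA of the endonuclease RNase MRP, had 15150 and 16482 FPKM (1.30), and RPPH1, the RNA of RNase P, 9751 and 10456 (1.28). TERC, the template RNA of telomerase, had 51.2 and 53.5 (1.24). Of the minor spliceosome, RNU11 (1.36), RNU12 (1.36), RNU4ATAC (1.31) and RNU6ATAC (1.32) were all higher. Copies of the major snRNAs ranged more widely, with RNU5F-1 at 1.58, RNU6-19P at 1.39, RNU6-28P at 1.34, RNU6-66P at 0.83 and RNU6-71P at −0.02. Their loci in the table, like those of RNU5D-1 and RNU5E-1, span 37.4 to 477 kb, far more than an snRNA, so all of these values are uncertain. The 4 vault RNAs ranged from 0.93 for VTRNA1-3 to 1.67 for VTRNA1-2. The Y RNAs differed from each other: RNY5 had 57125 and 70054 FPKM (1.48), whereas RNY4 had 195579 and 99009 (0.20). Further small RNAs lay well below the snoRNAs: SNAR-A1 (0.44), SNAR-A10 (0.46) and SNAR-A13 (0.52) fell short of the limit, and SNAR-A14 (0.69) and BCYRN1 (0.75), which RefSeq classes with the lncRNAs, were higher. These values are uncertain too, since the loci of BCYRN1 and of all these SNAR genes but SNAR-A10 span 15.9 to 519 kb, and that of RNY4 spans 0.034 kb.

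Of 76 miRNA genes, 67 were higher (88.2%, against 95.4% of all short RNAs) and 1 was lower, with a median of 1.40. Their spread was wider than that of the snoRNAs: the interquartile range was 1.03 to 1.72, against 1.19 to 1.41 for 225 snoRNAs. A read over a miRNA gene can come from the primary transcript, the hairpin or the mature RNA, which FPKM do not tell apart. For its mRNA libraries the paper describes a gel selection of fragments longer than a mature miRNA. Whether this selection was applied to these total RNA libraries is not given. RefSeq mature sequences were found for 71 of the 76 genes, and the main arms of the 9 with the largest changes follow, with the seed (bases 2 to 8) in capitals. miR-27a-3p and miR-27b-3p share the seed UCACAGU, and the other 7 seeds differ.
hsa-miR-138-5p: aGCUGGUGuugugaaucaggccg
hsa-miR-331-3p: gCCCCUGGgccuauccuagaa
hsa-miR-24-3p: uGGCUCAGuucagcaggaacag
hsa-miR-21-5p: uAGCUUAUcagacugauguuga
hsa-miR-26a-5p: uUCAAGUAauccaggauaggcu
hsa-miR-221-3p: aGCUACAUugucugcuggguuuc
hsa-miR-29b-3p: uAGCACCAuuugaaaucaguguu
hsa-miR-27a-3p: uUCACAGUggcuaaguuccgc
hsa-miR-27b-3p: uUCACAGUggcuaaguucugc

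MIR21, the gene of a miRNA that is abundant in many carcinomas, had 10469 FPKM with DMSO and 20674 with INK128, a centred change of 2.16 (chr17:57918627-57918698). MIR221 had 1723 and 3177 (2.06), and MIR29B1 1495 and 2740 (2.06). Both genes of the shared seed had like values: MIR27A had 1984 and 3534 FPKM (2.01), and MIR27B 237 and 414 (1.99). MIR24-1, next to MIR27B on chromosome 9, had 537 and 1132 (2.26), and MIR26A2 155 and 291 (2.09). Other genes of a shared arm or seed differed more. MIR24-2 lay at 1.71, MIR26A1 at 1.47 and MIR222, with the seed of MIR221, at 1.57. The 2 largest changes were at lower levels, MIR138-1 with 11.4 and 44.2 FPKM (3.13) and MIR331 with 31.9 and 120.1 (3.10). MIR1236 was the 1 lower gene, with 41.2 and 10.9 (−0.74). FPKM are scaled to gene length and no counts were given. In genes this short, the levels of MIR138-1, MIR331 and MIR1236 can therefore rest on few reads. MIR3661 (−0.26) and the copies MIR1244-1 and MIR1244-3, which had the same value (−0.26), were the next lowest at 5 FPKM or more.

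Most long noncoding RNAs stayed with the coding genes. MALAT1, an abundant RNA of nuclear speckles, had 14.6 and 5.81 FPKM (−0.15), and NEAT1, the scaffold of paraspeckles, 2.02 and 1.24 (0.47). The snoRNA host transcripts had a median of 0.16 over 15 genes, with 2 higher and 1 lower (background of lncRNAs 20.3% and 5.08%), whereas the snoRNA class as a whole lay near 1.33. Of the 15, 4 have an annotated short RNA gene in an exon, among them GAS5, ZFAS1 and SNHG10. GAS5 had 4.56 and 2.93 FPKM (0.55) and ZFAS1 9.16 and 3.53 (−0.19). The higher ones were SNHG7 (1.35), which has none, and SNHG10 (1.02), which has SCARNA13 in an exon, and SNHG9, with 4.15 and 0.657 FPKM, was lower (−1.48). MIR22HG, the host transcript of miR-22, went from 1.12 to 0.169 FPKM (−1.56).

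Of 33 antisense transcripts, 7 were higher and 1 was lower (median 0.06), and of 14 LINC transcripts 3 were higher (0.14). Both shares of higher transcripts lie near that of all 118 lncRNAs, of which 20.3% were higher and 5.08% lower. The higher ones at 5 FPKM or more were SSTR5-AS1 (53.1 and 53.5 FPKM, 1.19), LINC00847 (1.18), LINC00273 (0.99) and C17orf76-AS1 (0.61). Under that level lay TMEM44-AS1 (1.11), ZNF252P-AS1 (0.99), NEXN-AS1 (0.83), PRC1-AS1 (0.65), IQCH-AS1 (0.62) and LINC00461 (0.63). The lower one was BDNF-AS (−1.004), which lies opposite the neurotrophin gene BDNF. The MTRNR2L pseudogenes, nuclear copies of mitochondrial rRNA, made up 6 of the 10 lowest noncoding genes at 5 FPKM or more. Their 9 members had a median of −0.40, and MTRNR2L8, for example, had 1235 and 406 FPKM (−0.42). They are near-identical to each other and to the mitochondrial gene, so their values are not independent.

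Among the 541 coding genes with a mean of 5 FPKM or more, 65 were higher (12.01%). Of these, 40 were histones and 8 had a short RNA gene in an exon. Such genes made up 2.98% of all coding genes, and their share of the 541 was not counted. The largest change among the 541 was that of ATP5G3, which encodes subunit c of the ATP synthase, with 435 and 517 FPKM (1.43). A Y RNA gene lies in its exon. TMEM107 had 371 and 438 FPKM (1.42), and SNORD118, the U8 snoRNA, lies in its exon. RPL17 (0.68) overlaps 3 SNORD58 genes. Over all 199 coding genes with such an overlap the median was −0.02. HSPA8 and RPS7, among the 15 largest falls, have one too. TUBD1 (1.32), GSG2 (1.28), NRSN1 (1.26) and PGPEP1 (1.23) had no annotated short RNA gene in an exon. Their FPKM were lower in RFs than in total RNA, unlike those of MYC: NRSN1 had 68.1 and 71.8 FPKM in total RNA and 0.494 and 0.899 in RFs. Whether unannotated short RNAs lie in these genes was not tested.

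MYC, the transcription factor that drives growth genes, was among the other 17. It had 6.17 FPKM with DMSO and 4.41 with INK128, a centred change of 0.70 or 1.62-fold. SQSTM1, which encodes the autophagy receptor p62, had 8.51 and 5.91 FPKM (0.66). ANKRD1, a target of the YAP coactivator, had 10.0 and 7.16 (0.70), and was named after its value was seen.

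**Figure D3:**
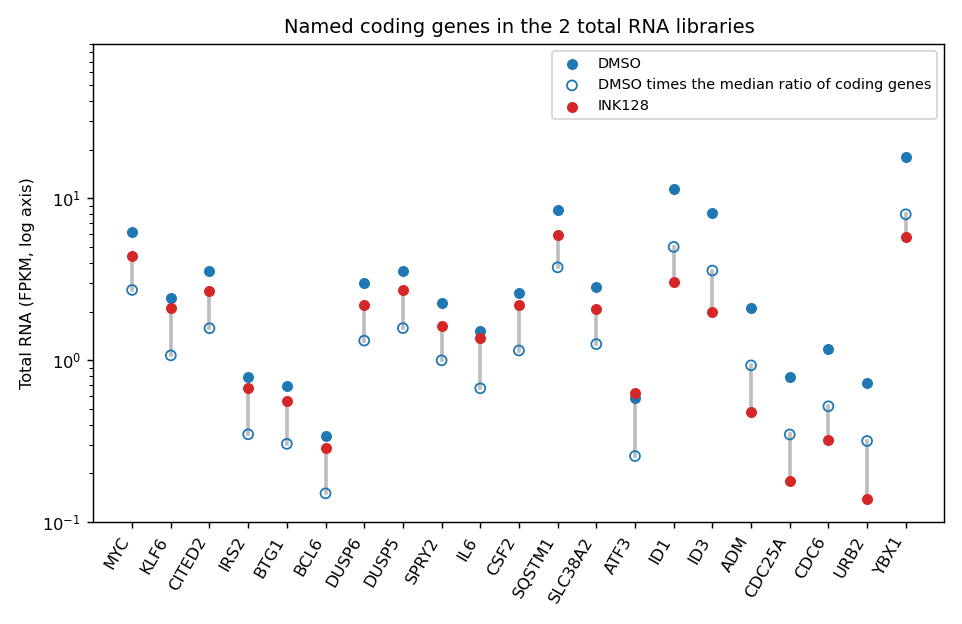
Total RNA (FPKM, log axis) of 21 named coding genes with DMSO (filled blue) and with INK128 (red), 1 library each, with the DMSO value times the coding median ratio of 0.441 as an open circle. Red lies above the open circle for the genes from MYC to ATF3 and below it for those from ID1 to YBX1.

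Targets of FOXO and feedback genes of PI3K signalling lay mostly above the coding median. Of 12 members, 5 were higher (background 3.77%), none was lower, and 11 lay above 0, with a median of 0.36. KLF6, a zinc finger transcription factor, had 2.43 and 2.096 FPKM (0.97). IRS2, the adaptor of the insulin receptor, had 0.791 and 0.677 (0.96). BCL6, a transcriptional repressor, had 0.341 and 0.288 (0.94). BTG1, an antiproliferative gene, had 0.690 and 0.562 (0.88), and CITED2, a regulator of the coactivators CBP and p300, 3.58 and 2.67 (0.76).

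The list of ERK feedback genes, which holds inhibitors of the pathway beside other genes that it induces, had the highest median among coding genes other than histones (0.40 over 15). Of these, 4 were higher and none was lower (background 3.77% and 2.14%). DUSP5 and DUSP6, phosphatases that act on ERK, had 3.58 and 2.73 FPKM (0.79) and 3.00 and 2.19 (0.73). SPRY2, an inhibitor of receptor tyrosine kinase signalling, had 2.26 and 1.62 (0.70), and SPRED2 0.389 and 0.265 (0.63). CCND1, the D-type cyclin in the same list, lay at −0.05.

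Immediate early genes, which growth factors induce without new protein synthesis, had a median of 0.24 over 22 members, with 5 higher and none lower (background 3.77% and 2.14%). Besides MYC these were DUSP1 (1.65 and 1.42 FPKM, 0.96), ZFP36 (0.85), EGR1 (0.75) and JUNB (3.49 and 2.51, 0.71). Inflammatory genes also had a median of 0.24, over 18 members, of which 5 were higher and none was lower, against the same background. IL6 had 1.52 and 1.36 FPKM (1.02), CSF2 2.60 and 2.18 (0.93) and IL8 1.92 and 1.42 (0.75). CXCL1 (0.86) and CXCL2 (0.81) were under 0.4 FPKM in both libraries. Other cytokine and chemokine genes of the list did not rise: LIF lay at 0.01, CCL5 at −0.38 and IL11 at −0.39.

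Short-lived transcription regulators split in both directions. Of 20, 6 were higher and 2 lower (background 3.77% and 2.14%), with a median of 0.26. The higher ones were MYC and CITED2 with KLF5 (0.91), FOXQ1 (0.86), MNT (0.86) and BHLHE40 (0.82). The lower ones were ID1 and ID3, which encode helix-loop-helix proteins that block the binding of E proteins to DNA. ID1 (chr20:30193086-30194317) had 11.4 FPKM with DMSO and 3.03 with INK128 (−0.73). ID3 (chr1:23884421-23886285) had 8.13 and 1.98 (−0.86), which was the largest fall among coding genes at 5 FPKM or more. Their footprints moved the same way, by −1.10 and −0.51.

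Amino acid supply and stress genes under ATF4 had a median of 0.12 over 27 members, with 5 higher and none lower (background 3.77% and 2.14%). PSPH, the last enzyme of serine synthesis, had 2.70 and 2.49 FPKM (1.06), and the amino acid transporter SLC38A2 2.85 and 2.06 (0.71). The stress regulators ATF3 (0.580 and 0.626 FPKM, 1.29), DDIT3 (0.88) and TRIB3 (0.65) were the others. ASNS, which makes asparagine, lay at 0.47, and DDIT4, which encodes the mTORC1 inhibitor REDD1, at −0.44; neither passed the limit. Lysosome and autophagy genes had a median of 0.19 over 29, with SQSTM1 and the V-ATPase subunit gene ATP6V1C1 (0.68) higher.

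Genes of sterol and fatty acid synthesis, the targets of SREBP, had no member past the limit. Their median was 0.16, and 27 of 32 lay above 0. INSIG1, which retains SREBP in the endoplasmic reticulum, had 4.13 and 2.45 FPKM (0.43), and the desaturase gene SCD 11.6 and 5.72 (0.17). HMGCS1, the synthase at the head of the pathway, lay at 0.01.

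Ribosome biogenesis genes had the lowest median of the coding lists, −0.20 over 52, and 42 lay below 0. Still, only 2 were lower than the limit (background 2.14%): URB2, with 0.719 and 0.140 FPKM (−1.18), and RRP1B, with 0.750 and 0.201 (−0.72), both nucleolar proteins of the large subunit pathway. PPAN (−0.55) was close to the limit and NOP16 (−0.01) was not. HIF1A targets had a median of 0.01 over 29. The lower ones were ADM, which encodes the vasodilator peptide adrenomedullin, with 2.11 and 0.476 FPKM (−0.97), and the aldolase gene ALDOC (−0.86). Genes of G1/S and replication had a median of −0.05 over 23. The lower ones were CDC25A, the phosphatase that activates CDK2, with 0.789 and 0.179 FPKM (−0.96), and CDC6, which loads the replicative helicase (−0.69).

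**Figure D4:**
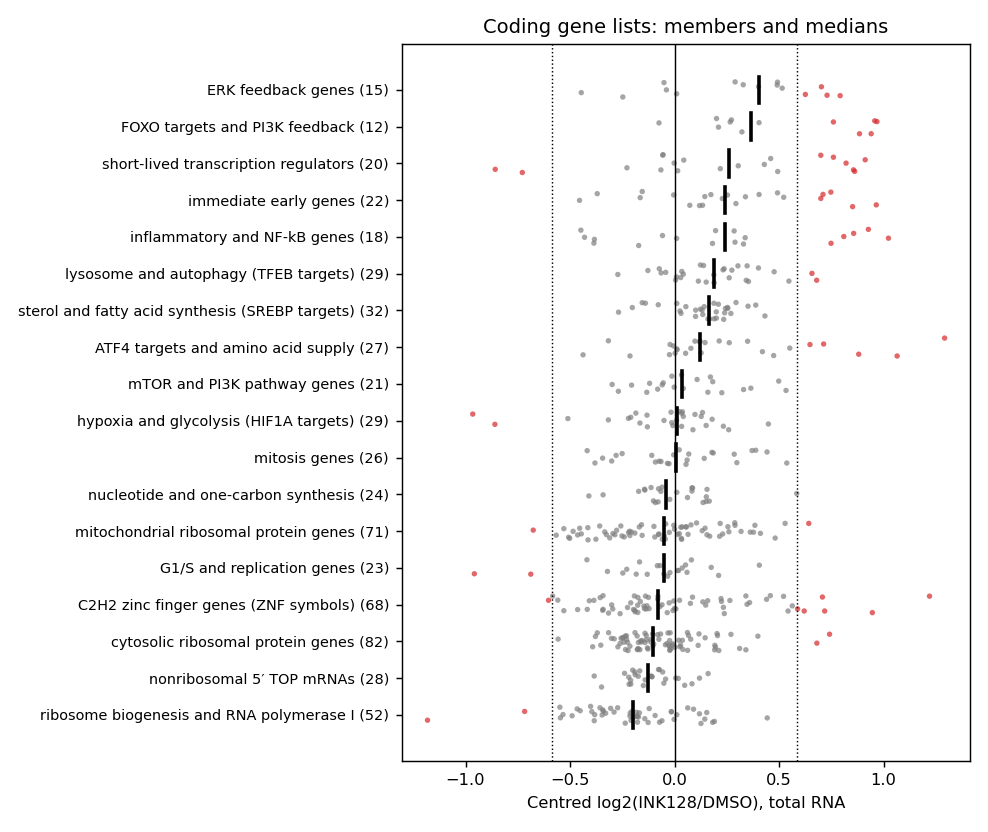
Centred log2(INK128/DMSO) of total RNA (x axis) for the members of 18 lists of coding genes (y axis, number of members in brackets), 1 point per gene, red past 1.5-fold (dotted), with each list's median as a bar. Medians run from −0.20 for ribosome biogenesis to 0.40 for ERK feedback.

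The mRNAs of the translation apparatus lay slightly below the coding median. The 82 cytosolic ribosomal protein genes had a median of −0.10, and 57 lay below 0, with RPL17 and RPS27L (0.74) higher and none lower (background 3.77% and 2.14%). RPS6, the substrate of the S6 kinases, had 42.7 and 16.04 FPKM (−0.23), and RPS29 184 and 63.5 (−0.35). The 28 other TOP mRNAs had a median of −0.13, and 22 lay below 0. EEF1A1, the elongation factor, had 155 and 61.0 FPKM (−0.17). Of the 15 lowest coding genes at 5 FPKM or more, RPL38 (−0.39), RPL19 (−0.38), RPS7 (−0.37), RPS29, RPL14 (−0.32) and EEF1D (−0.35) belong to these lists. The others besides ID1 and ID3 were YBX1, which encodes an mRNA-binding protein (18.1 and 5.79 FPKM, −0.46), SNRPG (−0.40), LY6E (−0.37), TALDO1 (−0.34), MRPL14 (−0.33), NEDD8 (−0.32) and the chaperone HSPA8 (−0.32).

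Several lists lay at the coding median. Mitochondrial ribosomal protein genes had a median of −0.05 over 71, with MRPS18C (0.64) higher and MRPS30 (−0.68) lower. Mitosis genes lay at 0.01 over 26, with CDC20 at −0.07. Nucleotide and one-carbon synthesis lay at −0.04 over 24, with TKT at 0.14. The mTOR and PI3K pathway genes lay at 0.03 over 21, with none past the limit, and EIF4EBP1, which encodes 4E-BP1, lay at −0.27. Of 68 ZNF genes, 6 were higher and 1 was lower (background 3.77% and 2.14%), with a median of −0.08, and the higher ones were ZNF652 (1.22), ZNF644 (0.95), ZNF485 (0.72), ZNF581 (0.71), ZNF367 (0.62) and ZNF587 (0.59). The lower one was ZNF121 (−0.60). None of the 13 mitochondrially encoded protein genes was among the symbols analysed. All 10 markers of this cell line were present, with VIM and KRT18 at 74.9 and 43.0 FPKM with DMSO. Of 6 luminal and epithelial markers, 3 were in the table and none reached 0.3 FPKM. Of 7 blood and endothelial markers, 2 were in the table and only CD68 (3.44 and 1.46 FPKM) passed.

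Footprints give a separate pair of libraries for the same treatments, and they were centred in the same way. Among 6634 coding genes, 114 were higher in RFs (1.72%) and 180 lower (2.71%). Of the 192 genes higher in total RNA with neither a histone nor a short RNA in an exon, 131 lay above 0 in RFs (68.2%), with a median of 0.15 and 41 past 1.5-fold higher against 4 lower. Of the 142 lower genes, 32 lay above 0 (22.5%), with a median of −0.15. Across 6584 coding genes without histones the 2 changes had a Pearson r of 0.24 and a Spearman rho of 0.25. This describes genes and not replicates, and both measures come from the same 2 treatments.

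The FOXO list had an RF median of 0.54, with 6 of 12 members higher (background in RFs 1.72%). CITED2 changed by 1.15 in RFs, KLF6 by 1.08, BTG1 by 0.82, IRS2 by 0.80 and BCL6 by 0.64. MYC changed by 0.80, from 87.8 to 154 FPKM of RFs, DUSP6 by 0.71, IL6 by 0.69 and SLC38A2 by 0.70. In contrast, EGR1 (−0.55), ZFP36 (−0.39), DDIT3 (−0.33) and TRIB3 (−0.23) were higher in total RNA with negative RF values. JUNB (−0.02) and ATF3 (0.18) were near 0. On the lower side, ADM (−0.87), CDC25A (−0.89) and URB2 (−0.64) were lower in RFs too, while CDC6 (−0.14), RRP1B (−0.20) and ALDOC (−0.18) were within the limit.

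Histones and ribosomal proteins departed in opposite measures. The 50 histone genes had a total RNA median of 1.07 and an RF median of −0.03, and HIST1H4K, for instance, changed by 1.31 in total RNA and 0.03 in RFs. The 82 ribosomal protein genes had a total RNA median of −0.10 and an RF median of −1.36, with 78 lower in RFs (background 2.71%). Other TOP mRNAs had medians of −0.13 and −0.72. YBX1 had −0.46 in total RNA and −1.60 in RFs, and RPS29 −0.35 and −1.80. Without centring, the histone median was −0.11 in total RNA, and the centring by other mRNAs thus places it at 1.07.

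**Figure D5:**
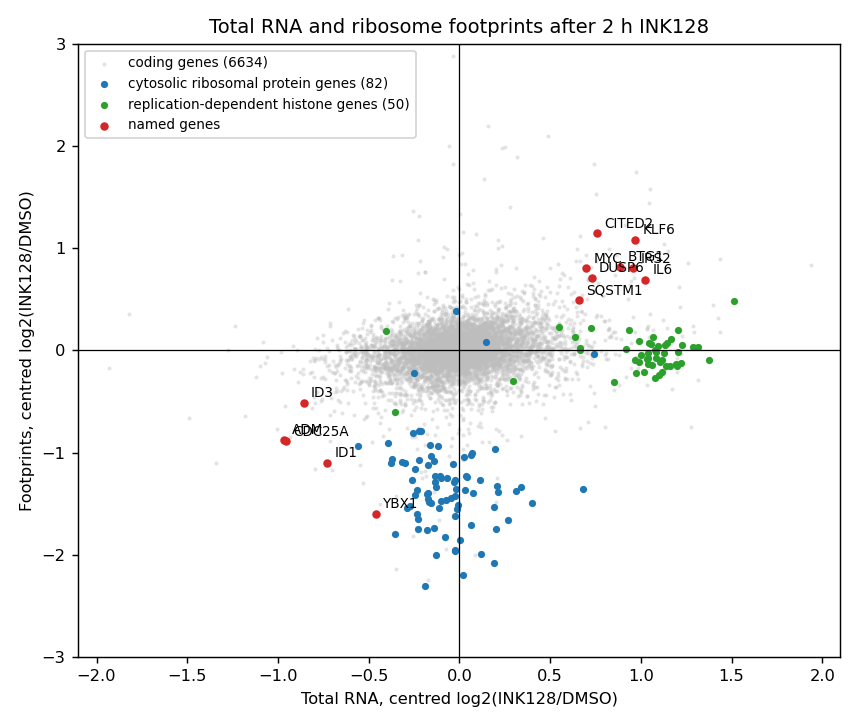
Change of total RNA (x axis) and of ribosome footprints (y axis) for coding genes, both centred log2(INK128/DMSO), 1 point per gene, with 2 genes outside the axes. Ribosomal protein genes (blue) lie low on the y axis near 0 on the x axis, histone genes (green) lie right at a footprint change near 0, and named genes (red) lie in the upper right or lower left.

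The series also holds 1 pair of mRNA libraries from cells given DMSO or 25 nM Silvestrol, an inhibitor of the helicase eIF4A, for 2 h at passage 3. The title and description of its control name DMSO, while the treatment field says untreated. Its controls are separate, the drug and dose differ and its RNA was selected for poly(A) tails, so values are set side by side without a comparison. Relative to the median of 5999 coding genes, MYC mRNA changed by 4.70 with Silvestrol (1117 reads with DMSO and 16961 with Silvestrol, not scaled to library size), beside 0.70 in total RNA with INK128. The values of KLF6 were 1.40 and 0.97, of IL6 1.91 and 1.02, of EGR1 3.80 and 0.75, and of DUSP6 0.96 and 0.73. Those of ID1 were −0.67 and −0.73, of ID3 −0.87 and −0.86, and of ADM 0.76 and −0.97. Of the 192 higher genes, 156 were measured there, with a median of 0.56, and of the 142 lower genes 121, with a median of 0.20. Histone genes measured there (37) had a median of −0.33.

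Promoters were read in RefSeq sequence (GRCh38.p14) from 250 bases before to 50 after the start, for 46 of 50 histone genes and 5588 of 6634 coding genes. The letters CCAAT stood on either strand in 87.0% of histone promoters and 38.1% of coding promoters, and TATAAA in 69.6% and 5.57%. Among the 164 promoters of the higher genes without either feature, CCAAT was found in 39.0% and TATAAA in 9.15%, the forkhead letters TGTTTAC in 4.27% (all coding 1.95%) and the AP-1 letters TGACTCA in 3.66% (2.85%). The letters of the amino acid response element, TGATGNAAN, stood in 3.66% (1.59%), those of the E-box, CACGTG, in 13.4% (11.1%), and those of the cAMP response element, TGACGTCA, in 3.66% (3.83%). Among 120 promoters of lower genes, CCAAT stood in 50.8% and the sterol regulatory letters TCACNCCAC in 3.33% (all coding 1.06%, higher genes 0.61%). The 250 bases before the start of HIST1H3C (chr6:26045134-26045383, + strand) show 4 copies of CCAAT in capitals, and those of HIST1H4K (chr6:27831561-27831810, − strand) show 1 TATAAA. The smaller shares rest on few promoters. Among higher genes, 7 held the forkhead letters and 6 each the AP-1, amino acid response and cAMP response letters. The sterol letters stood in 4 promoters of lower genes and in 1 of the higher genes. Matches are a description of letters and not of bound sites.
HIST1H3C promoter: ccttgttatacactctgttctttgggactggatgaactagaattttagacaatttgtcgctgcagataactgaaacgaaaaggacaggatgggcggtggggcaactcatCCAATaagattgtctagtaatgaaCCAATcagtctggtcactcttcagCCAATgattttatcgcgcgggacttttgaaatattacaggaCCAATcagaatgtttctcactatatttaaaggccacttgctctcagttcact
HIST1H4K promoter: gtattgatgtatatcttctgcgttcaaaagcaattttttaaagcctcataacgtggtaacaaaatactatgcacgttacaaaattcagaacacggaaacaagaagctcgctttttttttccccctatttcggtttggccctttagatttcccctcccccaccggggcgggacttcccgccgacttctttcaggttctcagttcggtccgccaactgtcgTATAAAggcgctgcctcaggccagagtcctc

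Median changes moved little with transcript length and base composition, while the numbers of called genes differed. Histones aside, medians over the 4 quartile groups of transcript length ran from −0.01 to 0.01, and over those of GC content from −0.05 in the second to 0.04 in the first. The shortest group, up to 1776 bases, held 56 higher and 62 lower genes, and the longest 45 and 16. The group with the lowest GC content, up to 43.3%, held 72 higher and 22 lower genes, and the one with the highest 36 and 30.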

How the data were processed

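Total RNA of MDA-MB-231 cells was sequenced as 1 library after 2 h with DMSO and 1 after 2 h with 200 nM INK128, beside 1 RF library each. The labels name the libraries total RNA. Methods of the study describe strand-specific libraries of single reads and a poly(A) selection for mRNA libraries, and whether it was applied to these total RNA libraries is not given in the sources used here. The submitters' processing notes name CASAVA 1.8.1, Bowtie2 and the builds hg19 and GRCh37. The authors deposited FPKM per gene for these 4 libraries, with no counts, and the program that made the FPKM is not stated. For the Silvestrol mRNA libraries the authors deposited counts of uniquely mapped reads and RPKM per transcript, and the deposited RPKM were used for changes. Columns of the authors' own comparisons were not used.

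The table held 13163 lines, of which 13160 were distinct. For 38 symbols with several entries the one with the highest mean total RNA FPKM was kept, and 20 symbols that are numbers, as spreadsheets make of some gene names, were not altered. Genes were classed by NCBI gene ID against RefSeq, which matched 99.6%. Starts in the table were taken to count from 0 and 1 was added: of 180 snoRNA genes matched to the annotation, 98 starts were equal after this and 11 as written, so single starts may be off. No pseudocount was used, since no gene over the minimum was at 0. A gene was called at 1.5-fold (0.585 on the log2 scale) with no test, no SE and no p-value, because there is 1 library per treatment. Footprint and Silvestrol changes were centred on the median of coding genes in the same way. Genes were named by size: 15 coding and 10 noncoding at each end among those with a mean of 5 FPKM or more, and the called members of each list, or the 2 at each end of a list with over 10. Histone variants, linker histones, histones short of the limit, Y, vault and SNAR RNAs, BCYRN1, host transcripts, MALAT1, NEAT1, ANKRD1, SNORD89 and single list members short of the limit were chosen after their values were seen. The members and lists were chosen with earlier results of these data known. Alternatives were no centring, centring on genes of 10 FPKM or more, no minimum, a minimum of 5, pseudocounts of 0.1 and 1, sums of duplicated symbols and a limit of 2-fold. A list or gene was taken as unchanged when it moved by less than 1.5-fold and did not change sign after being called, and a count when it stayed within 1.5 times. Short RNA genes in exons and the ends of transcripts came from GENCODE 44 lifted to GRCh37, and promoters and mature miRNAs from RefSeq. Some genes that the naming rule takes in are not reported here. The calculation was tested on simulated data. Python 3.11, numpy and pandas were used.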

Additional observations from a re-analysis of the deposited data

How the results depend on the processing

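Counts, list medians and named genes were recomputed under other settings, 1487 values in all, of which 1131 stayed within the limits given under the processing. Without centring 1 coding gene was 1.5-fold higher and 6395 lower, and 18 noncoding genes were higher and 197 lower, against 250, 142, 365 and 17. Of the genes called higher, 222 of 250 coding and 104 of 365 noncoding genes then had a fall. The median of all 52 histone genes, 2 pseudogenes included, was −0.12, and the named genes that turned, as uncentred log2 changes, were LINC00847 −0.0054, TMEM44-AS1 −0.068, PSPH −0.12, SNHG10 −0.16, IL6 −0.16, ZNF252P-AS1 −0.19, LINC00273 −0.20, SNORA80 −0.20, KLF6 −0.21, DUSP1 −0.22, IRS2 −0.22, ZNF644 −0.24, BCL6 −0.24, VTRNA1-3 −0.25, CSF2 −0.25, SNORA39 −0.26, KLF5 −0.27, SCARNA15 −0.27, BTG1 −0.30, DDIT3 −0.30, FOXQ1 −0.32, CXCL1 −0.33, MNT −0.33, ZFP36 −0.33, NEXN-AS1 −0.35, RNU6-66P −0.36, BHLHE40 −0.36, CXCL2 −0.37, DUSP5 −0.39, CITED2 −0.42, BCYRN1 −0.43, IL8 −0.43, EGR1 −0.43, RPS27L −0.44, DUSP6 −0.45, HIST1H1C −0.46, ZNF485 −0.46, SLC38A2 −0.47, JUNB −0.47, ZNF581 −0.47, SPRY2 −0.48, MYC −0.48, ANKRD1 −0.48, SNAR-A14 −0.49, RPL17 −0.50, ATP6V1C1 −0.50, SNORD81 −0.51, HIST1H1E −0.52, SNORD50A −0.52, HIST2H2AB −0.52, SQSTM1 −0.52, TRIB3 −0.53, PRC1-AS1 −0.53, MRPS18C −0.54, HIST1H2AM −0.55, LINC00461 −0.55, SPRED2 −0.56, IQCH-AS1 −0.56, ZNF367 −0.56, C17orf76-AS1 −0.57, SCARNA17 −0.58, ZNF587 −0.59. Without the minimum of 0.3 FPKM, 925 coding genes were higher, 679 coding genes lower and 114 noncoding genes lower. With a minimum of 5 FPKM these were 65, 2 and 1. A pseudocount of 0.1 left 47 coding and 11 noncoding genes lower. A pseudocount of 1, which is large against most FPKM here, gave 11 coding genes higher, 269 coding genes lower and 218 noncoding genes higher, and it turned the sign of SNORD50A −0.0216, SNORD81 −0.00978, HIST1H1E −0.0153, HIST1H2AM −0.0409, C17orf76-AS1 −0.0482, BDNF-AS 0.0386. At a limit of 2-fold, 74 coding genes were higher, 13 coding genes lower and 10 noncoding genes lower. Summing duplicated symbols or centring on coding genes of 10 FPKM or more changed no call in direction and no count by over 1.5 times. Without histones and genes with a short RNA in an exon, an alternative added after the data were seen, 192 coding genes were higher and 141 lower. No paired analysis was possible because each treatment has 1 library. With 1 library per treatment no spread between replicates was measured, and low FPKM rest on few reads.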
